A study of Mus musculus with 1037 samples.

Results

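A set of 10 circadian clock genes was followed through single cells of the mouse hair follicle: Clock, Bmal1, Per1, Per2, Per3, Cry1, Cry2, Nr1d1, Nr1d2 and Dbp. They were chosen by symbol, as the rows whose Ensembl identifier carries one of these names in the GENCODE annotation, and all 10 were found among the 55335 genes of the table. Each is described in every group of sorted cells that held cells with 2000 or more detected genes.

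The circadian clock is a feedback loop of transcription that runs with a period of about a day in most cells of the body, skin included. The proteins of Clock and Bmal1 bind together to E-boxes and switch on the Per and Cry genes, whose products return to block them. The same activators switch on Nr1d1 and Nr1d2, which encode the REV-ERB receptors that repress Bmal1, and Dbp, a transcription factor acting on D-boxes. Dbp, Nr1d1 and the Per genes therefore tend to be high at times of day when Bmal1 is low, and the reverse.

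The libraries were made by Smart-seq2, which copies the polyadenylated RNA of 1 sorted cell per well, from hair follicle epithelial cells of wild-type mice. The study sampled the follicle at full growth (AnaVI) and in late regression (CatVI and CatVII), when dying cells are cleared. P17f is a title of plates at postnatal day 17, and the labels give no day for the others. AnaVI gave lower outer root sheath cells (LOS, 39 of 93 cells passing) and upper-middle outer root sheath (ORS) cells in separate sorts named MOS (38 of 72) and UOS (83.6% passing). CatVII upper ORS cells came from a live and an apoptotic sort, OSalive (80.1%) and OSapop (65.2%). The 9 groups held 463 passing cells in all. CatVI upper ORS cells came from plates titled P17f, of which plates 1 and 2 (Phago, alive) had 19 of 88 and 9 of 73 cells passing, plate 5 (Phago, apop) 15 of 85 and plate 6 (NonPhago, apop) 14 of 69. Plates 3 and 4 (NonPhago, alive) had 0 of 67 and 0 of 57 cells passing, and 0 clock gene counts among 1104 and 27556 gene counts. The letter f in their titles is not explained in the sources used here.

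Each group was 1 sample, because cells of several mice had been pooled before the sort without a name for any animal. There was no replicate error between groups and no test was made. Intervals are 95% limits, exact Poisson for summed levels, exact binomial for ratios and shares, and they cover counting error only, since reads were amplified and carry no molecular identifier that would separate molecules. The mice were kept in a fixed cycle of light and dark, but the time of day of each collection is not given in the sources used here. Hair cycle stage, sort, plate and time of day cannot be told apart in any comparison between groups. Fewer cells that express a gene and less RNA per cell also cannot be told apart in a summed level.

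Summed gene counts ranged from 1840012 (plate 6) to 287377663 (OSalive). All 8 ORS markers, such as Krt5 and Krt14, were present in each of the 9 groups, with summed levels between 1094 CPM (counts per 1000000 gene counts) in LOS and 6081 CPM in plate 5. Between 71.3% and 80.7% of the counts fell on identifiers that the annotation does not hold, and 1 of them took 56.3% to 66.5%. Markers of other cell types were highest in LOS, where 4 fibroblast markers summed to 497 CPM, and in plate 2, where 4 melanocyte markers had 342 counts. In each group, 0 to 8 passing cells held more counts of immune, fibroblast, melanocyte and endothelial markers than of ORS markers. More than 1 passing cell carried the same well label for 23 labels in UOS, 50 in OSalive and 26 in OSapop, and 0 passing cells had counts equal to those of another.

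The bases before the start of 3 of these genes are printed. Each was at least 2-fold apart between CatVI and AnaVI and holds a match to the letters of a motif searched for below. Dbp meets this too, but the window before its start overlaps an exon of the neighbouring gene Car11 and is not printed. The 3 stretches were read from GRCm39, the build of the files, and are written 5′ to 3′ on the strand of the gene, with motif matches in capitals. The Per1 stretch is chr11:68988968-68989267, plus strand, within the annotated span of Per1 and before its canonical transcript. The Nr1d1 stretch is chr11:98666189-98666459, minus strand, and the Nr1d2 stretch is chr14:4230245-4230544, plus strand, both upstream of the annotated gene.
Per1: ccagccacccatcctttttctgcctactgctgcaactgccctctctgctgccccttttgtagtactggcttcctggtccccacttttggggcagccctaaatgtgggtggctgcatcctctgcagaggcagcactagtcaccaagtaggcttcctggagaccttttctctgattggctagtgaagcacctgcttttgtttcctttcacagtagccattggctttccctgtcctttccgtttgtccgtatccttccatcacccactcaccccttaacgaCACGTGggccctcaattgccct
Nr1d1: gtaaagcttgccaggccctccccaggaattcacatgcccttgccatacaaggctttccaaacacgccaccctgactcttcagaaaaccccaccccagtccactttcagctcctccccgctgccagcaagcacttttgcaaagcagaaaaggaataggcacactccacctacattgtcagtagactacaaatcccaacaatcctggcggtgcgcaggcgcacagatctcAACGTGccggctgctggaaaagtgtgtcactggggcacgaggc
Nr1d2: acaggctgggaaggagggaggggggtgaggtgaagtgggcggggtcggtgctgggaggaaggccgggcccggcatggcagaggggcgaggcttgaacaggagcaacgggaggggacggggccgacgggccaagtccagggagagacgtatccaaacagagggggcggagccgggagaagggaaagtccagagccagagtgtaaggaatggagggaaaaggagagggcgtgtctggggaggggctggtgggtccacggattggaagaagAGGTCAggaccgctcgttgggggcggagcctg
The capitals mark CACGTG (the E-box) in Per1, AACGTG (an E-box variant) in Nr1d1 and AGGTCA (the core of the sites that REV-ERB receptors bind) in Nr1d2. Over 300 bases before the canonical start, CACGTG was held by 6.95% of 21757 protein-coding promoters and by 2 of the 10 clock genes, Per1 and Cry1. The variant, CACGTT or AACGTG, was held by 5.09% of promoters and by Cry1, Cry2 and Nr1d1. AGGTCA or its reverse complement, TGACCT, was held by 15.9% of promoters and by Nr1d2 and Dbp. The D-box, searched as TTATGTAA, TTATGCAA and their reverse complements TTACATAA and TTGCATAA, was held by 1.78% of promoters and by Per2 and Per3. The searched letters were not found in the windows of Clock and Bmal1. These matches describe the sequence and were not tested as binding sites.

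Every clock gene had counts in all 3 AnaVI sorts and both CatVII sorts, whereas 8, 7, 9 and 9 of the 10 had counts in P17f plates 1, 2, 5 and 6. The summed level of the 10 genes was 103.8 CPM in LOS, 128.3 CPM in MOS, 124.3 CPM in UOS, 170.8 CPM in OSalive and 150.9 CPM in OSapop. In plates 1, 2, 5 and 6 it was 67.3, 68.9, 110.3 and 102.2 CPM. A single cell showed counts of a median of 5 clock genes in OSalive, 4 in UOS and OSapop and 3 in LOS and MOS, but 3 in each of these groups after every cell was thinned at random to 50000 gene counts. In plates 1, 2, 5 and 6 the medians were 3, 2, 3 and 2.5 clock genes, and 2, 1, 2 and 2 after thinning.

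**Figure D1:**
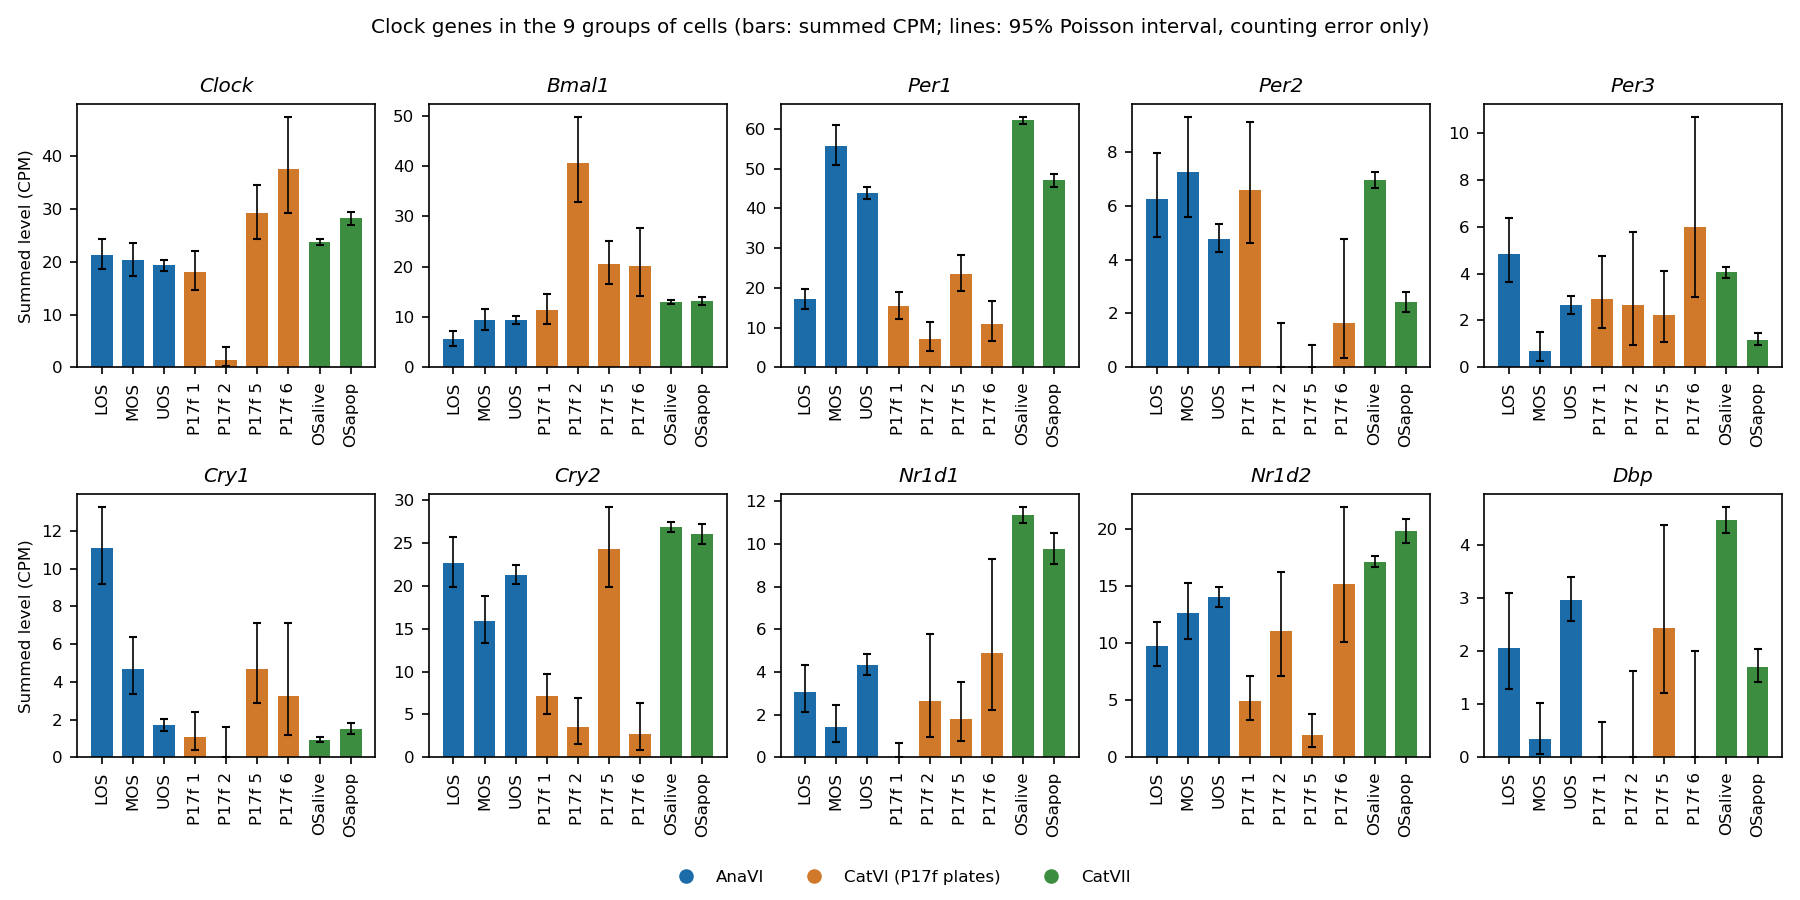
Summed level in CPM (vertical axis) of each of the 10 clock genes in the 9 groups (horizontal axis), with AnaVI in blue, CatVI plates in orange and CatVII in green and lines for the 95% Poisson interval. Per1 lies at 23.4 CPM or less in every CatVI plate and at 43.9 CPM or more in MOS, UOS, OSalive and OSapop, while Bmal1 has its 3 highest levels in plates 2, 5 and 6.

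Per1, which encodes a repressor and is also an immediate early gene that responds to signals, was the most abundant clock gene per transcript length in 4 of the 9 groups. Its level was 17.1 CPM in LOS (14.7 to 19.7), 55.7 CPM in MOS (50.8 to 60.9) and 43.9 CPM in UOS (42.3 to 45.5). In P17f plates 1, 2, 5 and 6 it was 15.3, 7.07, 23.4 and 10.9 CPM. OSalive had 62.2 CPM (61.3 to 63.1) and OSapop 47.04 CPM (45.5 to 48.6). Thus LOS and the CatVI plates held the low levels, and the highest of them, plate 5, had 66.7% of its Per1 counts in 1 cell. On the scale of CPM per kilobase, Per1 was at 9.29 in OSalive, 8.33 in MOS, 7.03 in OSapop and 6.56 in UOS, and it led the clock genes in these 4 groups.

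In each of the 5 AnaVI and CatVII sorts, Per1 was also found in more cells than any other clock gene. After thinning, it was detected in 81.5% of OSalive cells (73.5% to 87.9%), 81.3% of MOS cells, 72.97% of UOS cells, 69.4% of OSapop cells and 65.2% of LOS cells. Plates 1, 2 and 5 had 38.9%, 37.5% and 33.3%, and plate 6 had 3 of 12 cells, with an interval of 5.49% to 57.2%. In plates 5 and 6, Clock was found in more thinned cells, 6 of 15 and 6 of 12. Summed levels of 10 immediate early and dissociation stress genes, Fos and Jun among them, were highest in OSalive, MOS and UOS, with 1348, 1258 and 1110 CPM, against 453 to 854 in the CatVI plates and 736 in LOS. All 10 of these genes had counts in each of the 9 groups. OSapop had 817 CPM of stress genes, less than plate 2, beside more Per1. The part of the stress response in the Per1 levels was not tested. A noncoding gene, Gm72400, shares 334 of the 7659 exonic bases of Per1 on the opposite strand.

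Per2 and Per3, the other period genes, were low. The Per2 level was 6.25 CPM in LOS, 7.26 CPM in MOS, 4.77 CPM in UOS, 6.56 CPM in plate 1, 6.94 CPM in OSalive and 2.41 CPM in OSapop. Plates 2 and 5 had 0 counts of Per2, for which 3 counts would be 1.32 and 0.667 CPM, and plate 6 had 3 counts, all in 1 cell. The Per3 level was 4.85 CPM in LOS, 0.702 CPM in MOS from 6 counts, 2.65 CPM in UOS, 4.05 CPM in OSalive and 1.18 CPM in OSapop. Plates 1, 2, 5 and 6 had 2.92, 2.65, 2.22 and 5.98 CPM of Per3 from 16, 6, 10 and 11 counts. Without cells holding more counts of other markers than of ORS markers, plate 1 had 0.381 CPM of Per3 and plate 2 had 3.31 CPM. When the 9 groups were ordered by Per3 level, the intervals of all 8 pairs of neighbours overlapped, so only groups far apart in that order could be separated by their counts.

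Bmal1, the activator that is found on the opposite arm of the loop, showed another order. Its level was 5.60 CPM in LOS (4.27 to 7.21), 9.36 CPM in MOS and in UOS, 13.03 CPM in OSalive and 13.2 CPM in OSapop. Plates 1, 2, 5 and 6 had 11.3, 40.6, 20.5 and 20.1 CPM. Plate 2 stood above all others, but 95.7% of its counts, 88 of 92, came from 1 cell, the deepest of its 9. That cell held 1502 of the 2559 ORS marker counts of the plate and 20 of its 342 melanocyte marker counts. In plates 5 and 6 the cell with the most counts gave 20 of 92 and 10 of 37 counts. Thinned cells with a Bmal1 count were 6 of 15 and 5 of 12 there, against 24.3% in UOS (16.7% to 33.4%) and 35.5% in OSalive. The intervals of these shares overlapped.

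Clock, the partner of Bmal1, varied little outside the CatVI plates. It had 21.3 CPM in LOS, 20.2 CPM in MOS, 19.3 CPM in UOS, 23.8 CPM in OSalive and 28.2 CPM in OSapop. The plates spread from 1.32 CPM in plate 2, from 3 counts, over 18.1 CPM in plate 1 and 29.1 CPM in plate 5 to 37.5 CPM in plate 6. Without cells holding more counts of other markers than of ORS markers, plate 1 had 11.04 CPM of Clock. Clock shares 2047 of its 17251 exonic bases with Tmem165 on the opposite strand, and the library kit does not mark strand, so reads of these bases cannot be told apart. Tmem165 had log2 ratios of -0.49 for CatVII and -0.18 for CatVI against MOS and UOS together. They were 0.31 for OSapop against OSalive, and -0.49 for MOS and -0.79 for LOS against UOS. The part of Tmem165 reads in the Clock levels was not tested.

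The cryptochromes, which repress Clock and Bmal1 together with the Per proteins, differed from each other. Cry2 had 22.7 CPM in LOS, 15.9 CPM in MOS, 21.3 CPM in UOS, 26.9 CPM in OSalive and 26.03 CPM in OSapop, and 7.11, 3.53, 24.2 and 2.72 CPM in plates 1, 2, 5 and 6. Plate 5 lay with the AnaVI and CatVII sorts and the other 3 plates lay below them. Cry1 was at 11.1 CPM in LOS (9.20 to 13.3), 4.68 CPM in MOS, 1.71 CPM in UOS, 0.940 CPM in OSalive and 1.51 CPM in OSapop. Plates 1, 5 and 6 had 1.09, 4.67 and 3.26 CPM of Cry1 from 6, 21 and 6 counts, and plate 2 had 0 counts. Cry1 was thus highest in LOS and lowest, among the AnaVI and CatVII sorts, in OSalive. Per kilobase, Cry1 stood at 3.64 CPM and was second to Cry2 in LOS, whereas at 0.308 CPM it was last of the 10 in OSalive.

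Nr1d1, which encodes the repressor REV-ERB alpha, was at 3.08 CPM in LOS, 1.404 CPM in MOS and 4.33 CPM in UOS (3.85 to 4.85). OSalive had 11.4 CPM (10.96 to 11.7) and OSapop 9.76 CPM (9.06 to 10.5). Plate 1 had 0 counts, with a floor of 0.547 CPM for 3 counts, and plates 2, 5 and 6 had 2.65, 1.78 and 4.89 CPM from 6, 8 and 9 counts. Both CatVII sorts lay above all AnaVI sorts and CatVI plates, though the interval of plate 6 (2.24 to 9.29) reached that of OSapop. In thinned cells an Nr1d1 count was found in 26.6% of OSalive (19.1% to 35.3%), 18.8% of OSapop, 12.6% of UOS and 6.25% of MOS cells and in 3 of 23 LOS cells. The interval of OSalive overlapped that of each other sort in this list.

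Nr1d1 shares 1694 of its 3242 exonic bases with Thra, a thyroid hormone receptor gene on the opposite strand. Thra was at 14.9 CPM in MOS and UOS together, 15.7 CPM in CatVII and 13.8 CPM in CatVI, which are log2 ratios of 0.07 and -0.12. Its ratio was 0.47 for OSapop against OSalive, -0.57 for MOS against UOS and -1.02 for LOS against UOS. The part of Thra reads in the Nr1d1 levels was not tested. Nr1d2, the paralog, was at 9.80 CPM in LOS, 12.6 CPM in MOS, 14.05 CPM in UOS, 17.2 CPM in OSalive and 19.8 CPM in OSapop. In plates 1, 2, 5 and 6 it had 4.92, 11.04, 2.002 and 15.2 CPM. Of the plate 2 counts 96.0% came from 1 cell with 16 ORS marker counts and 321 of the 342 melanocyte marker counts of the plate, and without cells of that kind plate 2 had 0 CPM.

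Dbp, which carries the rhythm of the activators on to genes with D-boxes, had counts in 6 of the 9 groups. Its level was 2.05 CPM in LOS, 0.351 CPM in MOS from 3 counts in 1 cell, 2.97 CPM in UOS (2.58 to 3.41), 4.48 CPM in OSalive (4.24 to 4.73) and 1.71 CPM in OSapop (1.42 to 2.04). Plates 1, 2 and 6 had 0 counts, where 3 counts would be 0.547, 1.32 and 1.63 CPM, and plate 5 had 2.45 CPM from 11 counts in 3 cells. The 0 counts of plates 2 and 6 allow levels close to that of OSapop. Dbp shares 539 of 3470 exonic bases with Sphk2 on the opposite strand, and reads of these bases cannot be told apart either. Sphk2 had 16.4 CPM in CatVII and 16.3 CPM in CatVI against 9.78 CPM in MOS and UOS together, log2 ratios of 0.75 and 0.74. Its ratio was 0.67 for OSapop against OSalive, 0.45 for MOS against UOS and 0.005 for LOS against UOS. The part of Sphk2 reads in the Dbp levels was not tested.

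**Figure D2:**
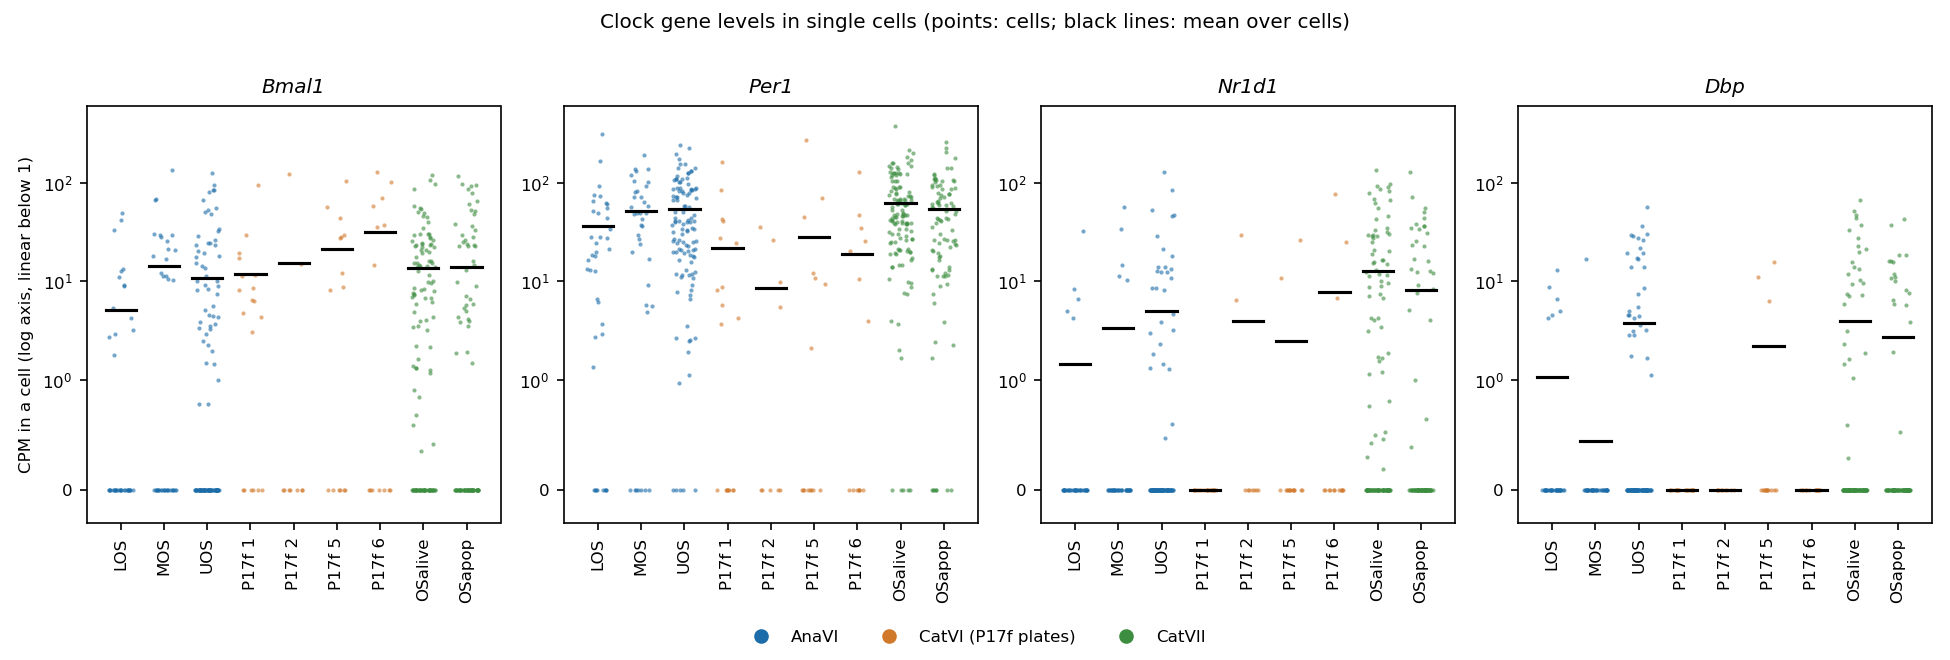
Level in CPM (vertical axis, logarithmic, linear below 1) of Bmal1, Per1, Nr1d1 and Dbp in each passing cell (points) of the 9 groups (horizontal axis), with black lines for the mean over cells. Most cells hold no count of Nr1d1 or Dbp, and the cell of plate 2 with 88 Bmal1 counts lies at 122.3 CPM.

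CatVII was first set against the AnaVI upper-middle ORS, MOS and UOS together, to compare late regression with full growth in the region that keeps the stem cells. Of the 10 clock genes, 9 had a log2 ratio above 0 and 1, Nr1d1, was at least 2-fold higher. Nr1d1 stood at 11.03 CPM in the CatVII cells and at 4.01 CPM in the AnaVI cells, for a log2 ratio of 1.46 (1.29 to 1.63). Over all 14707 genes with 100 or more counts, 11.5% were at least 2-fold higher and 24.1% at least 2-fold lower, so 1 of 10 is close to the background for higher genes, and 0 of 10 were lower. With median of ratios scaling these backgrounds were 17.5% and 16.8%. The median log2 ratio was 0.38 over the clock genes and -0.27 over all genes. The share of all genes above 0 was not counted, so the 9 above 0 have no background. Cry1, the 1 clock gene below 0, had 1.05 against 2.04 CPM, a log2 ratio of -0.95. The other 8 lay between 0.25 for Per2 and 0.55 for Dbp.

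The Nr1d1 ratio stayed between 1.22 and 2.97 over the settings tried and was at least 2-fold in OSalive alone (1.5) and OSapop alone (1.28). The ratios of Per2, Per3 and Dbp, at 0.25, 0.51 and 0.55, were -1.07, -1.05 and -0.65 when OSapop alone stood for CatVII. In thinned cells they were -0.46, -0.44 and -0.10, and that of Bmal1 was -0.01, so the count of 9 above 0 did not hold after thinning. Scaling by median of ratios moved the median of all genes to 0.11, a shift that applies to each clock gene alike. Relative to the median of all genes, Nr1d1 was higher by 1.73 and Cry1 was at -0.69. The Cry1 ratio itself stayed below 0 but ran from -2.15 against MOS alone to -0.19 as a mean over cells.

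CatVI, the 4 plates together with 57 cells, had lower levels of several targets of the loop. Per1 stood at 15.98 CPM against 45.2 CPM in AnaVI, for a log2 ratio of -1.5 (-1.70 to -1.31). Dbp was at -1.78 (-2.80 to -0.91) with 0.781 against 2.68 CPM, Nr1d1 at -1.29 with 1.63 against 4.01 CPM and Nr1d2 at -1.14 with 6.32 against 13.9 CPM. The CatVI counts behind them were 11, 23 and 89. Bmal1, in contrast, had 20.1 against 9.36 CPM, a log2 ratio of 1.10 (0.90 to 1.30). These 4 lower and 1 higher of 10 clock genes stand beside 24.4% lower and 13.1% higher among all 11690 genes counted. Per2 at -0.87 and Cry2 at -0.86 were lower by less than 2-fold in the 4 plates together, but the size of each depended on single plates. Per2 was at -3.85 without plate 1 and -0.31 without plate 5. Cry2 was at -1.93 without plate 5. Both stayed below 0 in every setting run. Clock, Per3 and Cry1, at 0.14, 0.33 and 0.20, had intervals that included 0.

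The Per1 ratio was between -1.97 and -1.32 over all settings run, which included leaving out each plate in turn. The Bmal1 ratio did not stay at 2-fold: it was 0.79 without plate 2, 0.79 without the cell with the most counts in each group, 0.76 as a mean over cells and 0.63 in thinned cells, and it remained above 0 in each. Nr1d1 was at -0.58 without plate 1, -0.53 as a mean over cells and -0.25 after thinning. Nr1d2 was at -0.95 without plate 1, -0.74 without plate 5, -0.79 after thinning and -0.97 with median of ratios scaling. Dbp was at -1.07 without plate 1. It was at -3.10 without plate 5, the only plate with Dbp counts, where 3 counts stood for 0. Leaving out the cells led by markers of other cell types left 4 lower and 1 higher. The lower Dbp and Nr1d1 rested on UOS: against MOS alone, where each fell short of 100 counts, Dbp had 0.781 against 0.351 CPM and Nr1d1 1.63 against 1.404 CPM, with log2 ratios of 1.15 and 0.22 and intervals that included 0.

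**Figure D3:**
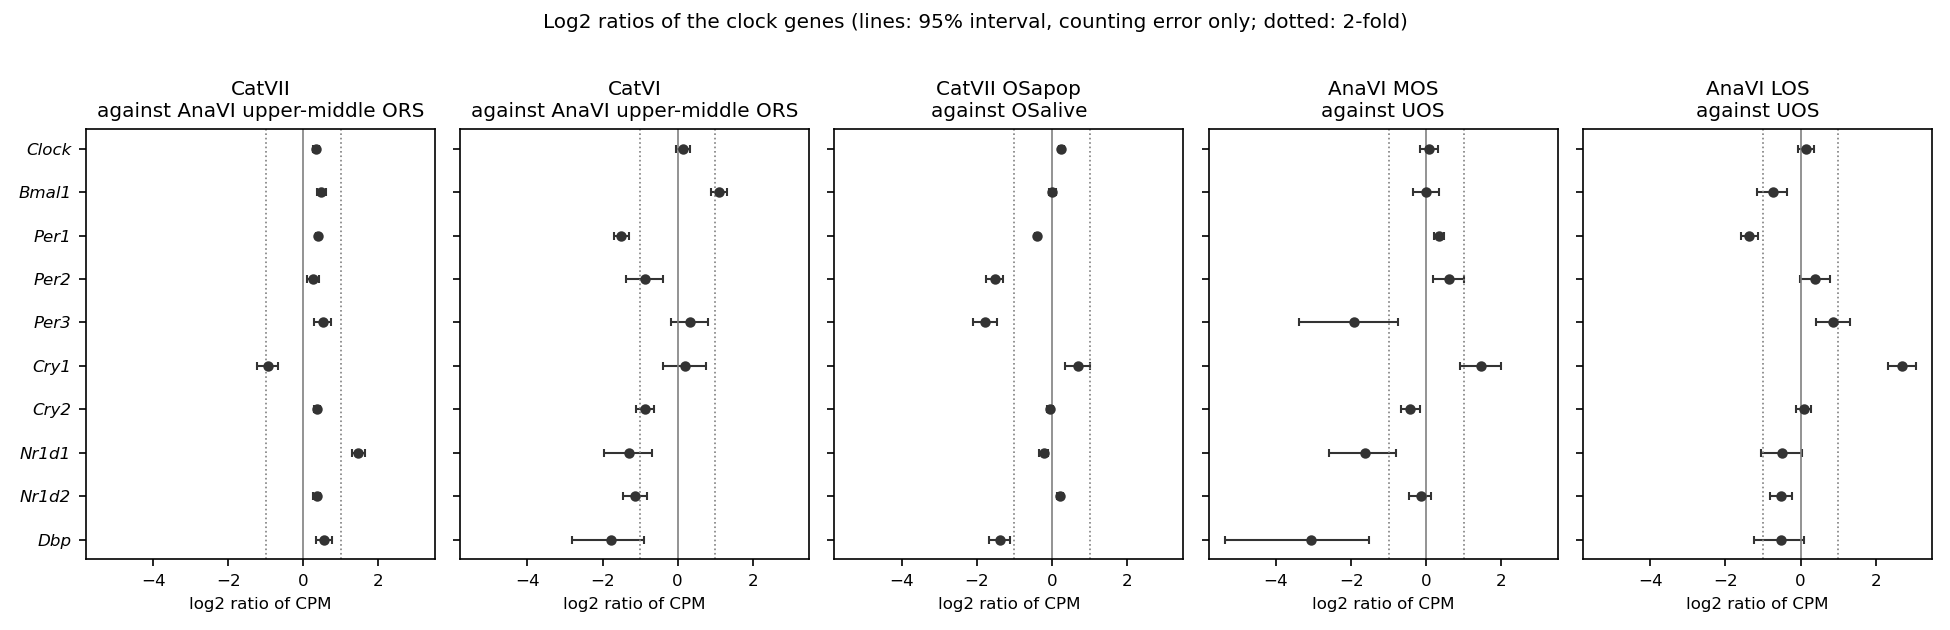
Log2 ratio of CPM (horizontal axis) of the 10 clock genes (rows) in 5 comparisons, with lines for the 95% interval from counting error and dotted lines at 2-fold. Nr1d1 lies at 1.46 for CatVII, Per1 at -1.5 and Bmal1 at 1.10 for CatVI, and Cry1 at 2.70 for LOS against UOS.

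Within CatVII, OSapop was set against OSalive to compare the apoptotic with the live sort. Per2 was lower in OSapop, with 2.41 against 6.94 CPM and a log2 ratio of -1.53 (-1.76 to -1.30). Per3 had 1.18 against 4.05 CPM, a ratio of -1.78, and Dbp 1.71 against 4.48 CPM, a ratio of -1.39. The clock genes thus had 3 of 10 at least 2-fold lower and 0 higher, where 11.3% and 10.6% of 13886 genes were, or 13.8% and 7.91% with median of ratios scaling. Bmal1 at 0.01 and Cry2 at -0.05 had intervals that included 0, Cry1 was at 0.68, and Clock, Per1, Nr1d1 and Nr1d2 lay between -0.40 and 0.25. In OSapop 55.1% of the Per2 counts came from 1 cell. The Dbp difference did not stay at 2-fold: it was -0.55 as a mean over cells and 0.030 after thinning, when 9.68% of OSalive and 11.8% of OSapop cells had a Dbp count. The part of depth in it was not tested.

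Among the AnaVI sorts, LOS was at least 2-fold apart from UOS in the summed counts of Cry1 and Per1. Cry1 was at 11.1 against 1.71 CPM, a log2 ratio of 2.70 (2.32 to 3.08), and after thinning it was found in 34.8% of LOS cells (16.4% to 57.3%) and 8.11% of UOS cells (3.77% to 14.8%). Per1 was lower at -1.36, and at -0.58 as a mean over cells and -0.93 after thinning. These are 1 higher and 1 lower of 10 beside 14.1% and 14.3% of 11473 genes, and the count of 2 became 5 as a mean over cells, 4 after thinning and 6 without the top cells. Other genes passed 2-fold there: Nr1d1 was at -1.80 and Nr1d2 at -1.30 as a mean over cells. Bmal1 was at -1.82 and Dbp at -2.31 after thinning, and Cry2 was at -1.05 without the top cells. The cell with the most Cry1 counts gave 65.5% of them in LOS, and the ratio was 1.87 when the top cell of each group was left out. The deepest LOS cell, with 2877848 counts or 26.9% of the group, was the top cell of 7 of the 10 clock genes, giving 70.4% of the Cry2, 72.7% of the Nr1d1 and 61.7% of the Bmal1 counts. It held 912 ORS marker counts and 544 of the 556 endothelial marker counts of LOS. LOS also had the highest summed level of the proliferation markers Mki67 and Top2a, 182.4 CPM, against 37.05 CPM in UOS, and their part in its clock gene levels was not tested.

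MOS and UOS, which the labels place in the same region, were also compared. Dbp was at -3.08 (-5.37 to -1.51), Per3 at -1.92, Nr1d1 at -1.62 and Cry1 at 1.45 (0.90 to 1.98), from 3, 6, 12 and 40 counts in MOS. That is 3 lower and 1 higher of 10, where 23.2% and 6.56% of 11114 genes were, or 18.97% and 9.41% with median of ratios scaling. The Cry1 value rested on 1 MOS cell with 36 of the 40 counts, and was -1.19 without the top cells and -0.67 after thinning. Per3 was at -0.36 and Nr1d1 at -0.60 as a mean over cells. Clock at 0.07 and Nr1d2 at -0.15 had intervals that included 0, Bmal1 had 9.36 CPM in both, and Per1 was at 0.34.

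The ratio of a gene to Bmal1 within a group does not depend on scaling between groups. Per kilobase, its sign does depend on the lengths used. Canonical transcripts were used, with 4266 bases for Bmal1, 6691 for Per1, 2721 for Nr1d1 and 1837 for Dbp. All annotated exons together hold 11573, 7659, 3242 and 3470 bases. Those lengths would raise each ratio by an amount equal in all groups, and the signs under them were not counted. On the scale of CPM per kilobase, the log2 ratio of Dbp to Bmal1 was -0.44 in UOS (-0.68 to -0.21), -0.33 in OSalive (-0.42 to -0.23), -0.23 in LOS, -1.73 in OSapop and -3.52 in MOS. It was -1.85 in plate 5. With 0 Dbp counts set to 3, it was -3.15, -3.72 and -2.41 in plates 1, 2 and 6. The upper limits there were -2.81, -3.40 and -2.04. With these canonical lengths, the ratio of Nr1d1 to Bmal1 was above 0 in both CatVII sorts, at 0.45 in OSalive (0.38 to 0.52) and 0.22 in OSapop (0.08 to 0.36), but as a mean over cells it was 0.56 and -0.15. In LOS, MOS and UOS it was -0.21, -2.09 and -0.46. In plate 1, with 0 counts set to 3, it was -3.72 with an upper limit of -3.38. In plates 2, 5 and 6 it was -3.29, -2.87 and -1.39. Without the cell with the most Bmal1 counts, plate 2 was at 1.23 for Nr1d1, from 6 against 4 counts. For Dbp, with 0 counts set to 3, it was then at 0.80. As a mean over cells, LOS was at -1.17 for Nr1d1 and -1.03 for Dbp. The other Dbp and Nr1d1 ratios below 0 kept their sign in both settings.

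Per1 exceeded Bmal1 in all 5 AnaVI and CatVII sorts, on the same log2 scale by 0.96 in LOS, 1.92 in MOS, 1.58 in UOS, 1.60 in OSalive and 1.19 in OSapop. In the summed counts per kilobase it lay below Bmal1 in the CatVI plates, with ratios of -0.21 in plate 1 with an interval that included 0, -3.17 in plate 2, -0.46 in plate 5 and -1.54 in plate 6. Plates 1 and 2 did not keep this direction: plate 1 was at 0.23 as a mean over cells, and when the cell with the most Bmal1 counts was left out plate 1 was at 0.44 and plate 2 at 0.94, from 12 Per1 and 4 Bmal1 counts. Plates 5 and 6 stayed below 0 in both settings, at -0.25 and -1.38 as a mean over cells and -0.11 and -1.23 without that cell. Both settings used canonical lengths. In summed counts not divided by length, the log2 ratios were 0.44, -2.52, 0.19 and -0.89 in plates 1, 2, 5 and 6. The intervals of plates 1 and 5 included 0. For Nr1d2 the ratio was between -0.01 and 0.40 in the 5 AnaVI and CatVII sorts and -1.61, -2.29, -3.76 and -0.81 in the plates. Without the 1 cell with 88 Bmal1 counts, plate 2 was at 2.23 from 25 Nr1d2 and 4 Bmal1 counts, and as a mean over cells MOS was at -0.89 and plate 2 at -0.59. Nearly all of these Nr1d2 counts came from the cell rich in melanocyte markers described above. Without cells led by other markers, plate 2 had 0 CPM of Nr1d2. Of the 45 ratios of Dbp, Nr1d1 and the 3 Per genes to Bmal1, 38 were below 0, and 32 when the cell with the most Bmal1 counts in each group was left out. The share of all genes below Bmal1 was not counted, so these numbers have no background. They rest on canonical lengths, and the same count with all annotated exons was not made. The ratios of a group share its Bmal1 counts, and genes with 0 counts entered with 3.

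**Figure D4:**
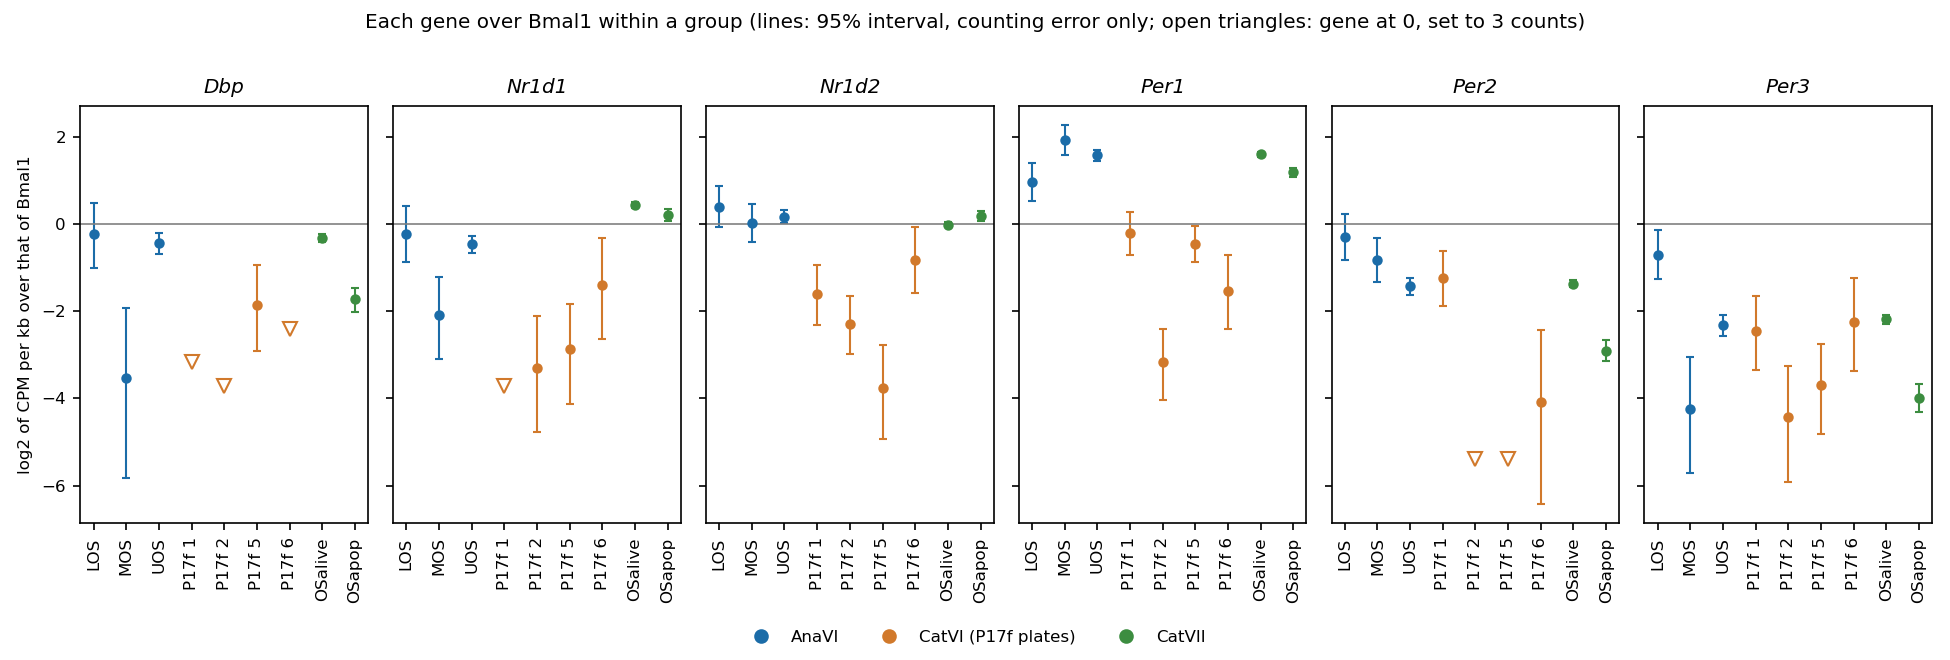
Log2 ratio of CPM per kilobase of 6 clock genes over Bmal1 (vertical axis) in the 9 groups (horizontal axis), with lines for the 95% interval from counting error and open triangles where the gene had 0 counts and was set to 3. Per1 lies above 0 in all AnaVI and CatVII sorts, from 0.96 to 1.92, and below 0 in the summed counts per kilobase of the 4 CatVI plates, where 88 of the 92 Bmal1 counts of plate 2 came from 1 cell and the interval of plate 1 included 0. The place of 0 depends on the lengths used, here those of canonical transcripts.

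Cells were also asked whether clock genes occur together. Over the 45 pairs of clock genes, the correlation of log2(CPM + 1) across cells had a median of 0.04 in UOS, 0.02 in OSalive and 0.05 in OSapop, with extremes of -0.28 for Bmal1 with Nr1d2 and 0.27 for Nr1d1 with Nr1d2 in OSalive and 0.31 for Nr1d1 with Dbp in OSapop. These describe sparse counts in the passing cells of 3 sorts, and the cells of a correlation come from 1 sort and differ in depth.

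**Figure D5:**
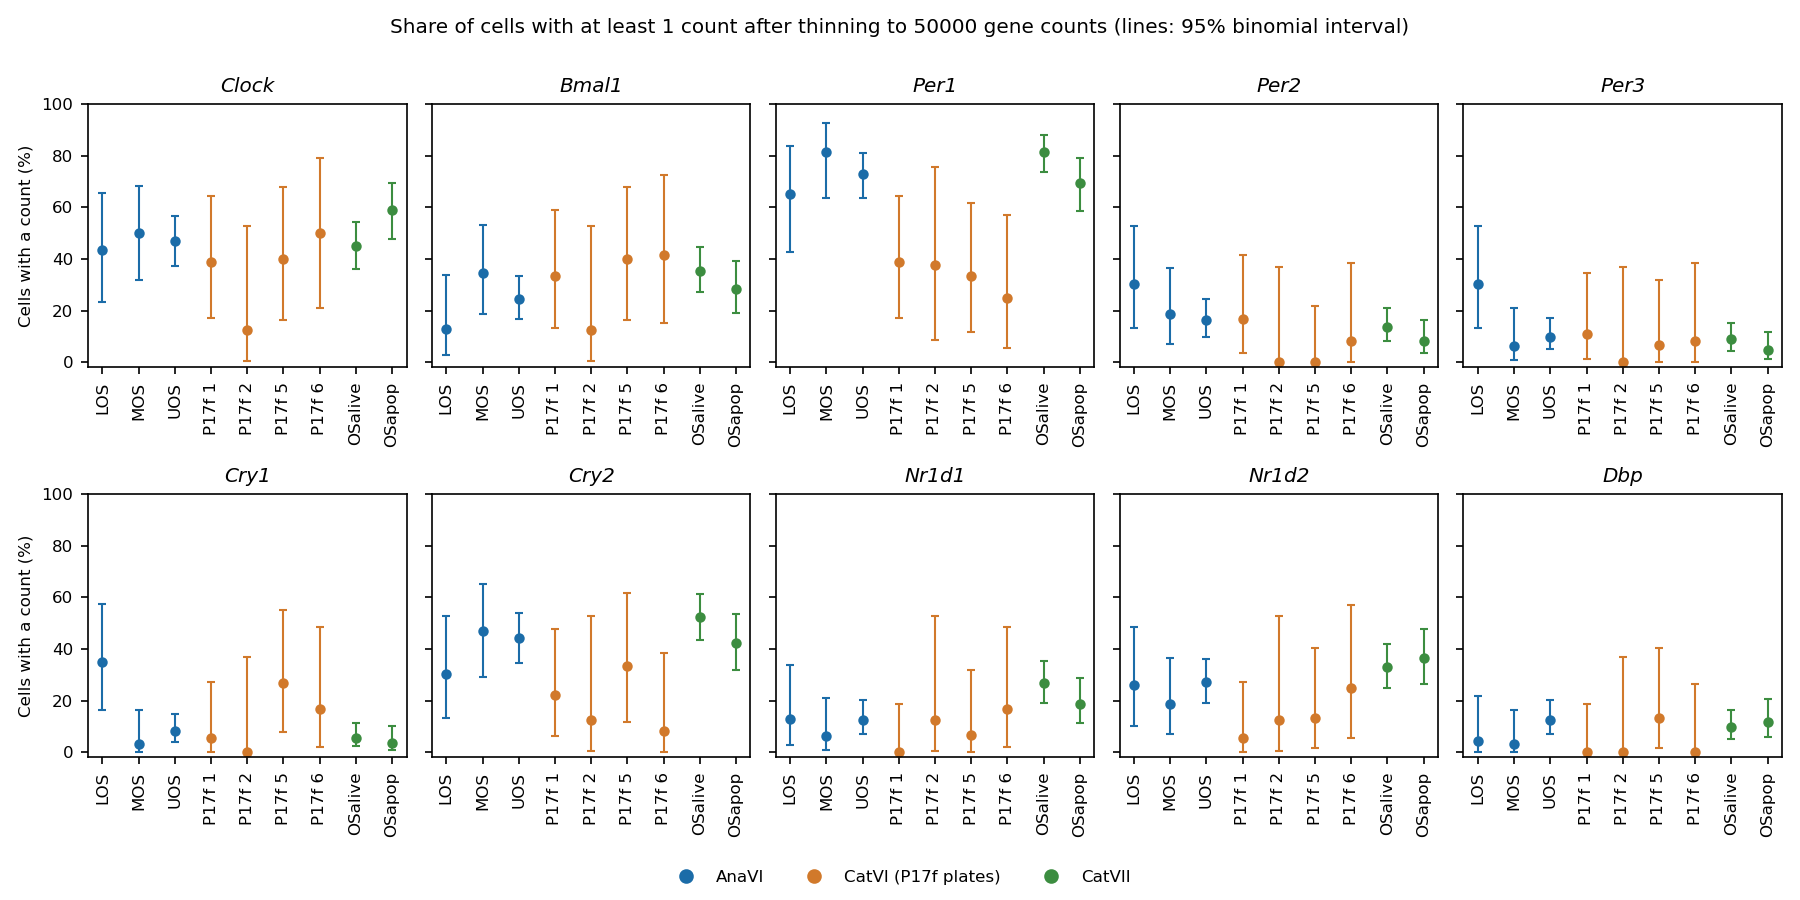
Share of cells (vertical axis, percent) with at least 1 count of each clock gene after thinning to 50000 gene counts in the 9 groups (horizontal axis), with lines for the 95% binomial interval. Per1 shares run from 65.2% to 81.5% in the AnaVI and CatVII sorts and reach at most 38.9% in the CatVI plates.

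The wider clock was covered by a list of 26 further genes. For CatVII against the AnaVI upper-middle ORS, 25 of them passed the count minimum, with 4 at least 2-fold higher, 2 lower and a median log2 ratio of 0.09, where 11.5% of all genes were higher, 24.1% were lower and the median was -0.27. The higher ones were Tef, a D-box factor related to Dbp, at 1.20 from 37.2 against 16.2 CPM, Fbxl21 and Btrc, parts of ubiquitin ligases, at 2.12 and 1.06, and Wee1, a cell cycle kinase with an E-box-driven rhythm, at 1.22. Timeless was lower at -1.43, and Ciart, a repressor of the loop, was at -1.23 from 94 against 47 counts but at 1.77 without the top cells. Wee1 turned to -0.59 against MOS alone. Fbxl21 was high in OSalive alone, with 1.31 CPM from 376 counts, whereas OSapop had 0.151 CPM from 11 counts beside 0.247 CPM in AnaVI.

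In CatVI, 22 of the 26 passed, with 0 higher, 8 lower and a median of -0.32, beside 13.1% higher, 24.4% lower and a median of -0.17 over all genes. Bhlhe40, which encodes the E-box repressor DEC1, was at -4.49 from 4 against 492 counts, Klf9, an output gene, at -2.11 from 3.41 against 14.7 CPM and Wee1 at -1.90. Klf9 was at -0.09 against MOS alone, which had 3.63 CPM. Bhlhe40 had 7.07 CPM in UOS and 1.05 CPM in MOS, beside 0.284 CPM in CatVI. The activator paralogs Bmal2 and Npas2 were at -2.03 and -1.42, the corepressor gene Hdac3 at -1.21 and Timeless at -2.65 from 3 CatVI counts. None of these stayed past 2-fold in every setting. Bmal2 was at -0.82 and Hdac3 at -0.46 as a mean over cells, Npas2 at -0.71 without plate 1 and Timeless at -0.44 after thinning. All of them kept their direction. None of the 7 kinase and ubiquitin ligase genes that passed was 2-fold apart, and their median was 0.15. Both sets of ratios share the AnaVI cells.

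Finally, the genes with the most similar pattern over the 9 groups were listed for 3 members, as a description over 9421 genes, in which each group is 1 point. Clasrp (Pearson r 0.97), Neat1 (0.96) and Zmym6 (0.94) came closest to Bmal1. Tmem63a, Sdc4 and Fzd2, each at 0.97, came closest to Per1. Tkfc (0.96), Zbtb9 (0.91) and Chst14 (0.91) came closest to Dbp. The Bmal1 pattern includes the high value of plate 2, of which 95.7% came from 1 cell.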

How the data were processed

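The deposited table holds estimated counts per gene for single cells. According to the labels and methods, the authors used STAR 2.6 for alignment to mm39 and Salmon 1.4.0 for quantification, and summed transcripts per gene with tximport. The values are not normalized, and cells with no gene count are among them. These deposited expected counts were rounded to whole numbers here, and 92 spike-ins were left out of all totals. A deposited table of labels was not used, since groups came from the sample labels. A single cell with conflicting stage labels was left out, and 1 labelled cell has no column. Doublet callers were not run: wells with several cells had been excluded by the authors with a qPCR of Gapdh.

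The 463 cells in which 2000 or more genes were detected entered the analysis, counts were summed per group, and CPM is a gene's share of the summed gene counts per 1000000. Symbols and lengths of canonical transcripts came from GENCODE vM39 (GRCm39), which held 93.3% of the identifiers. The 5 comparisons were log2 ratios of CPM, with 0 counts set to 3 and at least 100 counts over both groups, and past 2-fold was the call, with no test. The named genes were all 10 clock genes, genes of a list of 26 further clock genes past 2-fold in CatVII or CatVI against AnaVI, the 3 genes most like Bmal1, Per1 and Dbp among those detected in 75 or more cells, and marker or stress genes beside a result. A single gene of that list is not reported here. Members and lists were chosen with earlier results of these data known. Depth sets the precision: the groups held 1840012 to 287377663 gene counts. The calculation of ratios was tested on simulated data. Alternatives covered scaling (median of ratios, TMM of edgeR 4.0.16 in R 4.3.3), cell weights, filters, thinning, groups and plates. Python 3.11.15, numpy 2.4.6, pandas 2.3.3, scipy 1.17.1 and matplotlib 3.10.9 were used.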

Additional observations from a re-analysis of the deposited data

How the results depend on the processing

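No paired analysis was possible because each group is 1 sample and no replicate number links groups. Of the 15 clock gene ratios past 2-fold, 13 kept their direction under every alternative run and 7 stayed past 2-fold. The number past 2-fold for CatVII went from 1 to 4 against MOS alone, to 2 with OSalive alone and to 3 with OSapop alone. For CatVI it went from 5 to 3 after thinning, and leaving out 1 plate at a time gave 4 to 5. Of all genes, 15.9% were higher and 22.1% lower after thinning. With 1 plate left out, 11.1% to 13.8% were higher and 25.4% to 28.9% lower. For MOS against UOS it went from 4 to 2 as a mean over cells, and for LOS against UOS from 2 to 5 as a mean over cells, 4 after thinning and 6 without the top cells. For MOS as a mean over cells, 7.14% of all genes were higher and 14.1% lower. The shares for LOS are given with that comparison. Direction reversed for Cry1 in MOS against UOS (-0.67 thinned, -1.19 without the top cells), Dbp in OSapop against OSalive (0.030 thinned), Ciart in CatVII (0.51 as a mean over cells, 1.77 thinned and 1.77 without the top cells) and Wee1 in CatVII (-0.59 against MOS alone). The construction of these settings weights cells or groups differently, and beyond that the cause was not tested. Leaving out cells led by other markers, chosen after seeing the data, changed no count. It took out 10.6% of the LOS counts and kept the deepest LOS cell, which held most endothelial marker counts of LOS. Of all genes past 2-fold for CatVII, 32.3% were higher, and 51.03% under median of ratios and 53.7% under TMM; for CatVI 34.98%, 44.2% and 34.7%; for OSapop 48.5%, 36.5% and 36.2%; for MOS 22.1%, 33.2% and 29.6%. The number of Bmal1 ratios below 0 was 38 of 45 under 3 alternatives, though as a mean over cells Per1 in plate 1 and Nr1d1 in OSapop changed sign. Without the cell with the most Bmal1 counts in each group, an alternative chosen after seeing the data, it was 32, and 6 ratios changed sign. All of these used canonical lengths. Depth limits the CatVI plates most, where 3 counts would be 0.547 to 1.63 CPM.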
